A study of Mus musculus with 5 samples.

Results

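The genes described here encode the subunits of oxidative phosphorylation in the mouse testis, together with a few factors that build complex I. They were chosen by symbol alone: every feature whose name starts with mt-Nd, mt-Co, mt-Atp, mt-Cytb, Nduf, Uqcr or Atp5, or that is one of the Cox4 to Cox8 genes. Of 27998 features, 101 met this rule, 13 encoded by the mitochondrial genome and 88 by nuclear genes. The nuclear set held 79 subunits, of which 36 belong to complex I, 8 to complex III, 20 to complex IV and 15 to complex V. The remainder were 7 Ndufaf genes, which encode assembly factors of complex I, and 2 genes related to complex V, Atp5s and Atp5sl.

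Oxidative phosphorylation passes electrons from NADH through complexes I, III and IV to oxygen, and complex V uses the resulting proton gradient to make ATP. Each of these complexes combines subunits made inside the mitochondrion from mitochondrial DNA with a larger number made from nuclear genes and imported. Several complex IV subunits exist in more than one form, and the testis has forms of its own, Cox6b2, Cox7b2 and Cox8c, which stand in for the common Cox6b1, Cox7b and Cox8a in germ cells. Germ cells in meiosis silence the X chromosome, which carries some of the nuclear genes, and Sertoli cells, the somatic nurse cells of the tubule, pass lactate to the germ cells around them.

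Single-cell RNA was read from whole mouse testis labelled as synchronized. The libraries from 144 h on were placed at successive returns of stages VIII and IX of the epithelial cycle. There was 1 library at each of 5 times: 0 h, labelled Control, and 144, 350.4, 556.8 and 763.2 h, labelled EP1 to EP4. Strain, genotype, age and the synchronizing agent are not given in the labels, and nothing in them says whether a library came from 1 animal or several. The testes were dissociated with collagenase and then trypsin, with the supernatant discarded after the tubules settled between these steps, a step that can remove interstitial cells.

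With 1 library per time there is no replicate, and no test between times is possible. Time and library cannot be told apart. Ratios are given with exact 95% intervals, and so are shares and sums, but these cover counting error only. The libraries held 7441 to 11987 barcodes and 75578147 to 118147393 UMIs (unique molecular identifiers, which count captured RNA molecules). The lowest barcode total ranged from 500 to 2443 UMIs, and any 2 libraries shared between 11 and 37 barcodes. After filtering, 7770, 6762, 5171, 8887 and 11524 cells were kept at 0, 144, 350.4, 556.8 and 763.2 h. Cells were clustered without the genes described here and the classes were named from marker genes, so every class is "Sertoli-like", "round spermatid-like" and so on, written below without that ending. CPM, the usual scaling of counts to a common total, is taken here over the UMIs that are not mitochondrial, so that the mitochondrial share does not enter it. In Sertoli cells 12 or 13 of 13 markers reached 20 CPM and all 13 were higher than in the other cells, at every time. Some germ cell classes were less clear. In differentiating spermatogonia 5, 6, 6 and 7 of 8 markers were higher than in the other cells from 144 to 763.2 h. In late pachytene spermatocytes 6 of 8 were higher at each time, and in early pachytene 6 of 7. In elongating spermatids all 9 of 9 were higher. In a pool of cells, fewer molecules per cell and fewer cells carrying the gene cannot be told apart.

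Transcripts of the mitochondrial genome were read first as 1 group of 13. They made up 6.68, 10.6, 10.5, 4.28 and 3.39% of all UMIs at 0, 144, 350.4, 556.8 and 763.2 h. The middle libraries were highest and the last 2 lowest. Barcodes with at least 20% mitochondrial UMIs were 0.588, 7.31, 12.8, 6.04 and 4.27% of the barcodes in the same order, and barcodes under 1% were 5.10, 3.43, 2.63, 42.05 and 18.7%. The 556.8 h library thus held both many barcodes nearly without mitochondrial transcripts and a tail of barcodes rich in them.

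Sertoli cells carried the highest mitochondrial share of any class from 144 h on. Their 13 mitochondrial genes made up 7.15% of UMIs at 0 h (n = 2916 cells) and 15.7% at 144 h (n = 1541). The share was 22.3% at 350.4 h (n = 854), 20.7% at 556.8 h (n = 105) and 23.8% at 763.2 h (n = 77). The counting interval was widest at 763.2 h, 23.7 to 23.8%. The step lies between 0 and 350.4 h, and the 3 later libraries are close to each other. Medians over single cells were 4.98, 15.6, 14.4, 20.9 and 24.6%. The pooled share and the per-cell median lay furthest apart at 350.4 h. There 529 of the 854 cells fell in a shallow cluster with a median of 1364 UMIs and a pooled share of 12.9%. Different clusters hold most of the class at different times: 0, 12, 3 and 10 at 0 h, 31 and 33 at 144 h, 36 and 40 at 350.4 h and 40 at the last 2 times. Left without 3 clusters that stand apart in mitochondrial share or depth (10, 30 and 36), the shares were 7.62, 15.4, 23.1, 20.5 and 24.04%.

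Among the other somatic classes the mitochondrial share changed less. Leydig cells, which make testosterone, had 7.07% at 0 h and 7.41% at 144 h, the only times with at least 20 of these cells. Peritubular myoid cells, the contractile cells around the tubule, had 3.99, 5.03, 6.93, 6.14 and 6.49%, a narrow band beside the range of Sertoli cells. Stromal cells had 4.26 and 5.04% at 0 and 144 h, endothelial cells 4.82 and 4.10%, and macrophages 5.05, 6.53, 5.12 and 2.21% from 0 to 556.8 h. A higher mitochondrial share at 144 h than at 0 h was therefore seen in Leydig, myoid, stromal, Sertoli and macrophage pools and in undifferentiated spermatogonia, and not in endothelial cells. It was largest in Sertoli cells.

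In germ cells the share was highest before pachytene and lowest at the end. Undifferentiated spermatogonia, the stem and progenitor cells, had 7.64% at 0 h, 8.57% at 144 h and 12.5% at 350.4 h. They were the only staged germ cell class with at least 20 cells at 0 h. Differentiating spermatogonia had 8.004, 8.42, 8.66 and 8.48% at 144, 350.4, 556.8 and 763.2 h, and early meiotic spermatocytes 6.35, 7.47, 8.07 and 8.25%. Early pachytene spermatocytes were lower, at 4.36, 3.76 and 4.22% at the last 3 times, and late pachytene and diplotene spermatocytes lower again, at 2.52, 3.002 and 3.08%. The order early meiotic, early pachytene, late pachytene held at all 3 times where the 3 classes were present.

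Spermatids did not continue that order simply. Round spermatids had 5.49 and 5.62% at 350.4 and 556.8 h but 2.17% at 763.2 h. Their clusters spread widely: cluster 43 held 21.6, 11.9 and 14.4% at these times, while cluster 42 held 0.112 and 0.220% at 556.8 and 763.2 h. Without the clusters whose next best match was late pachytene, the round spermatid shares were 2.29, 2.29 and 1.20%, so the level of this class rests on which clusters it is given. Elongating spermatids, in which the nucleus is condensing, were lowest of all classes at 0.608 and 0.692%. Weighing each cell the same gave 1.62% for elongating spermatids at 763.2 h and 7.19% for late pachytene spermatocytes, so shallow cells held higher shares than deep ones.

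**Figure D1:**
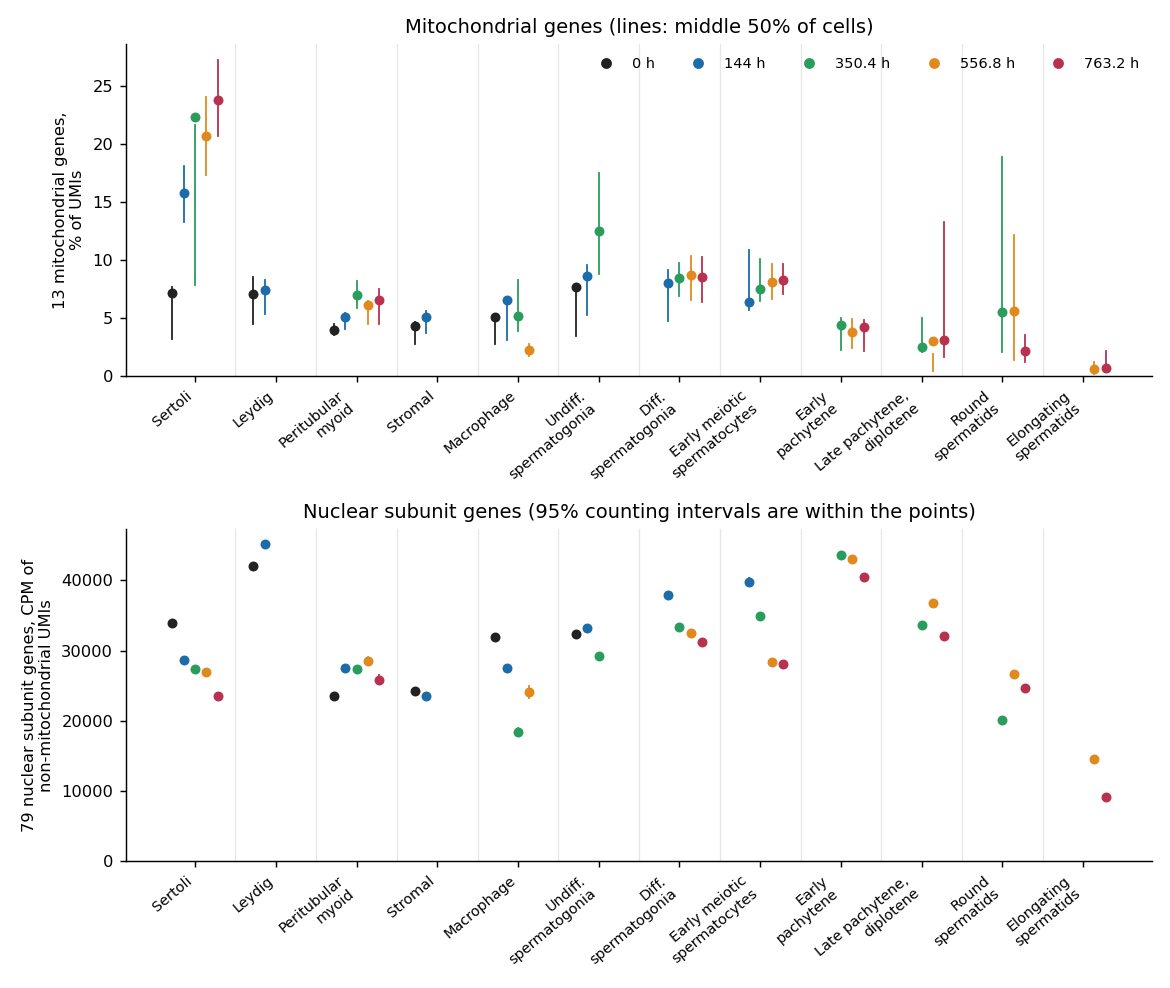
The upper panel plots the 13 mitochondrial genes as a percentage of UMIs (vertical axis) for each cell class and library, with lines for the middle 50% of cells, and the lower panel plots the 79 nuclear subunit genes as CPM of non-mitochondrial UMIs. Sertoli cells stand highest in the upper panel from 144 h on, at 15.7 to 23.8%, while in the lower panel their own lowest point is that of 763.2 h, at 23581 CPM.

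The nuclear subunits did not follow the mitochondrial genes. In Sertoli cells the 79 nuclear subunit genes summed to 33854, 28687, 27313, 26874 and 23581 CPM at the 5 times, so the later libraries, with the higher mitochondrial share, were lower. Without the 3 clusters that stand apart these sums were 32668, 28799.5, 26797, 26912 and 23264 CPM, in the same order except that 556.8 h lay above 350.4 h. Cluster 10 showed the 2 genomes furthest apart: its 204 cells at 0 h held 0.254% mitochondrial UMIs and 49881 CPM of nuclear subunits. Malat1, a nuclear-retained RNA, was at 273 CPM there and at 19077 CPM in cluster 0.

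Leydig cells had the highest nuclear subunit sum of the named classes in the 0 and 144 h libraries, 42026 CPM at 0 h and 45226 CPM at 144 h. Early pachytene spermatocytes were the highest germ cells, at 43677, 42973 and 40402 CPM at 350.4, 556.8 and 763.2 h, although their mitochondrial share was below that of the early meiotic cells before them. The nuclear sums of early meiotic cells were 34913, 28417 and 28029.6 CPM. Late pachytene spermatocytes were at 33631, 36763 and 32032 CPM, round spermatids at 20171, 26681 and 24686 CPM, and elongating spermatids at 14489 and 9082 CPM. In each of these libraries the nuclear sum peaked in early pachytene, where the mitochondrial share was already lower.

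Member by member, 85 of the 88 nuclear genes reached 20 CPM with 50 UMIs in at least 1 of 43 cell classes taken by library. Those that did not were Cox4i2, Cox6a2 and Cox8b, forms of complex IV subunits best known from lung and muscle. Of the 85, 27 were highest in Leydig cells, 14 in early pachytene and 13 in early meiotic spermatocytes, 11 in differentiating spermatogonia and 8 in late pachytene spermatocytes. Elongating spermatids were the lowest class for 54. The same counts were not taken over all genes, so they are not read as particular to the members. Of all genes, 54.4% and 65.1% were at least 2-fold lower in elongating than in round spermatids at 556.8 and 763.2 h.

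The make-up of the mitochondrial RNA itself varied among classes, with each gene taken as a share of the 13. UMI counts of different genes are not compared here, since capture differs between transcripts. The 13 genes lie on the mitochondrial chromosome of GRCm38, mt-Nd6 on the opposite strand from the other 12. mt-Atp8 overlaps mt-Atp6, mt-Nd4l overlaps mt-Nd4, and mt-Nd6 overlaps the end of mt-Nd5; how reads in these overlaps were assigned is not given in the sources used here, so the values of mt-Atp8, mt-Nd4l and mt-Nd6 are uncertain. Over 42 classes by library, mt-Co3, which encodes a core subunit of complex IV, took 19.4 to 25.2% of mitochondrial UMIs, mt-Atp6, the proton channel subunit of complex V, 13.99 to 21.9%, and mt-Co2 14.1 to 23.5%. mt-Co1, the catalytic subunit of complex IV, took 10.7 to 19.8%, with its highest share in undifferentiated spermatogonia at 0 h and its lowest in elongating spermatids at 763.2 h. The complex I genes took 3.79 to 6.74% for mt-Nd1, 3.21 to 6.31% for mt-Nd2, 1.004 to 2.51% for mt-Nd3, 3.53 to 6.98% for mt-Nd4 and 0.349 to 1.32% for mt-Nd5. mt-Nd4l, mt-Atp8 and mt-Nd6 stayed at or under 0.752% in every class.

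mt-Cytb, the mitochondrial subunit of complex III, took a smaller part of the mitochondrial RNA in late pachytene than before. Its share was 12.7, 11.1, 10.1 and 8.73% in early meiotic spermatocytes at 144, 350.4, 556.8 and 763.2 h, and 9.88, 9.32 and 8.18% in early pachytene spermatocytes at the last 3. In late pachytene spermatocytes it was 5.06, 4.76 and 3.92%, below every earlier germ class in each library. Round spermatids had 5.73, 4.48 and 5.87% and elongating spermatids 8.16 and 7.39%.

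mt-Co2, which carries the copper site that takes electrons from cytochrome c, moved the other way. It held 16.9, 17.05 and 16.97% in early meiotic and 21.5, 22.7 and 23.5% in late pachytene spermatocytes at 350.4, 556.8 and 763.2 h. mt-Nd3, a small complex I subunit, held 2.31, 2.49 and 2.35% in the first and 1.004, 1.21 and 1.16% in the second. The shift in late pachytene was therefore not shared equally by genes of the same strand: mt-Cytb and mt-Nd3 took a smaller part and mt-Co2 a larger one.

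**Figure D2:**
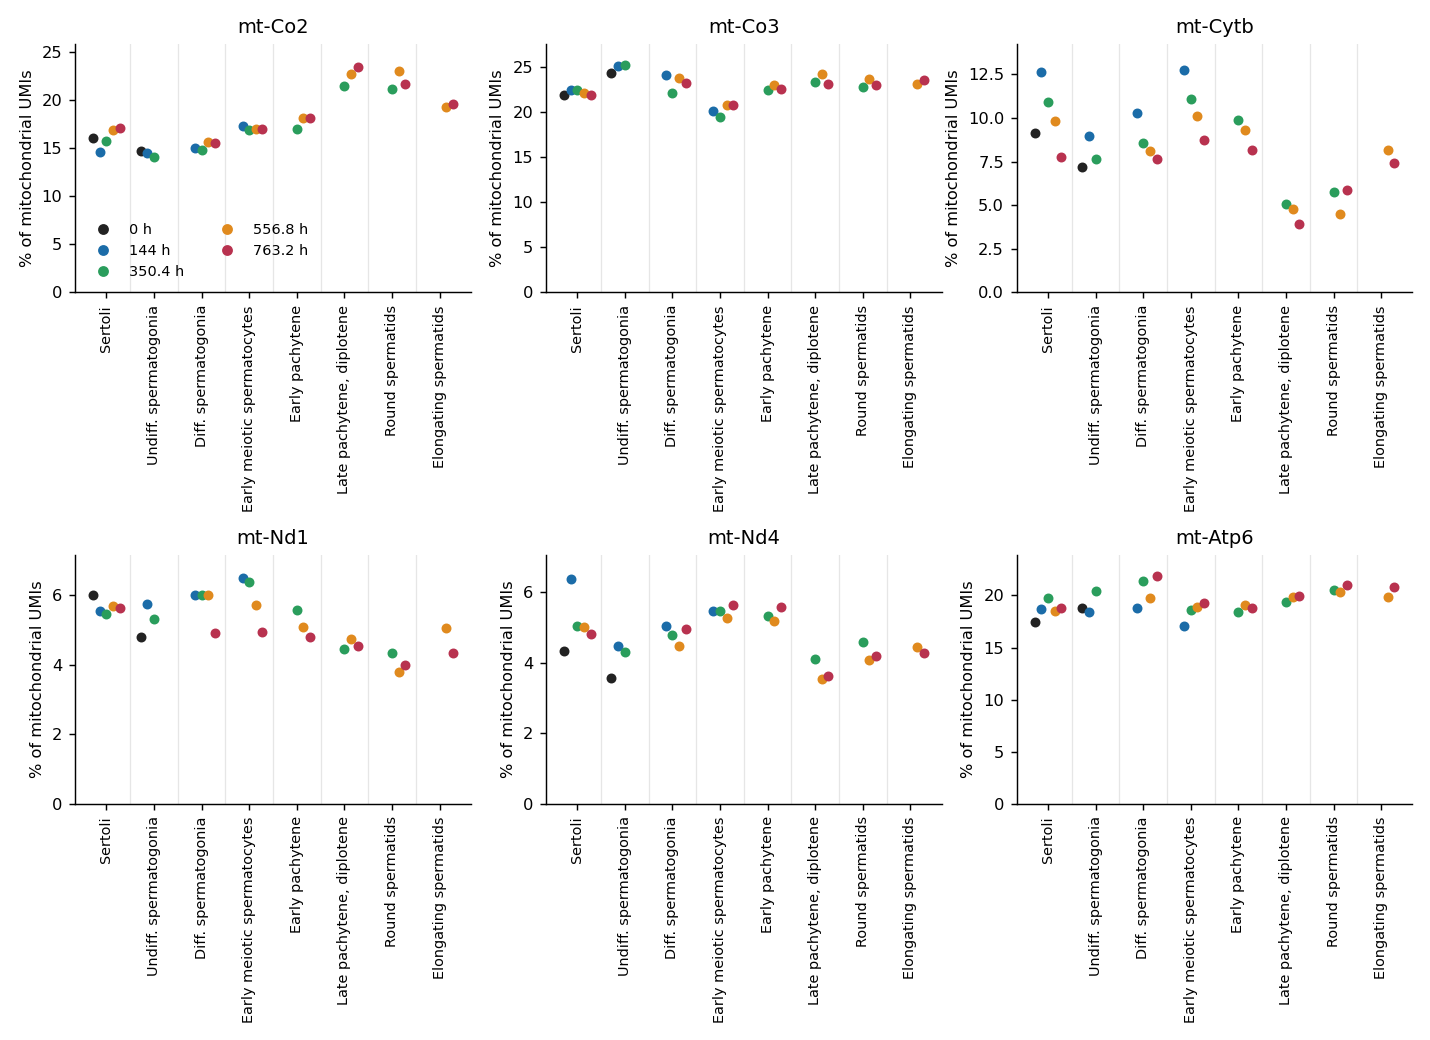
Each panel plots 1 mitochondrial gene as a percentage of mitochondrial UMIs (vertical axis) in Sertoli cells and the germ cell classes, with points coloured by library. mt-Cytb is at 3.92 to 5.06% in late pachytene spermatocytes and at 8.73 to 12.7% in early meiotic ones.

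A second difference in make-up ran through whole libraries. In all 7 classes found at both 0 and 144 h, mt-Atp8, mt-Nd4l, mt-Nd5 and mt-Nd6 took a smaller share at 144 h, with median ratios over the classes of 0.231, 0.298, 0.455 and 0.307. mt-Nd4 and mt-Cytb took a larger one in all 7, with median ratios of 1.35 and 1.251. For mt-Atp8 the ratios ran from 0.190 to 0.369, so somatic and germ cells moved alike, and library and time cannot be told apart here.

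The nuclear subunits shifted among the complexes during meiosis. Of nuclear subunit UMIs, complex V took 28.3% in Sertoli cells and 25.4% in undifferentiated spermatogonia at 0 h. In early meiotic spermatocytes it took 22.7, 21.8 and 23.7% at 350.4, 556.8 and 763.2 h, in early pachytene 18.6, 17.7 and 17.998% and in late pachytene 15.4, 15.1 and 15.3%. Complex IV took 32.9, 32.95 and 30.97% in early meiotic and 40.8, 41.004 and 40.2% in late pachytene spermatocytes. It was 29.5 and 29.4% in elongating spermatids, where complex V held 19.2 and 22.9%. The complex IV share leans on 1 gene, Cox8c. At 556.8 h Cox8c held 11372 of 292433 subunit UMIs in early meiotic and 291022 of 2408665 in late pachytene spermatocytes. At 763.2 h it held 2876 of 119415 and 89698 of 783276. The 7 assembly factors of complex I summed to 819, 641 and 599 CPM in early meiotic, 1127, 1209.8 and 1104 CPM in early pachytene and 1022, 1319 and 1156 CPM in late pachytene spermatocytes. In Sertoli cells they summed to 249, 217, 292, 441 and 358 CPM.

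The exchange of common for testis forms of complex IV was among the sharpest differences between classes in the nuclear members. The windows before the start of the genes of 2 such pairs are shown. The members of each pair moved in opposite directions between early meiotic and late pachytene spermatocytes. The windows are the 250 bases upstream of the annotated start in RefSeq on GRCm38.p6, printed 5′ to 3′ along the gene's own strand: Cox7b2 at chr5:71548206-71548455 (minus strand), Cox7b at chrX:106015450-106015699 (plus strand), Cox6b2 at chr7:4753095-4753344 (minus strand) and Cox6b1 at chr7:30626115-30626364 (minus strand). Capitals mark the motif letters found on either strand, GGGCGG (SP1) in Cox7b2 and Cox6b2 and CCGGAAG (an ETS motif, the kind bound by GABPA) in Cox6b1; Cox7b had none of the 5 motifs searched.
Cox7b2: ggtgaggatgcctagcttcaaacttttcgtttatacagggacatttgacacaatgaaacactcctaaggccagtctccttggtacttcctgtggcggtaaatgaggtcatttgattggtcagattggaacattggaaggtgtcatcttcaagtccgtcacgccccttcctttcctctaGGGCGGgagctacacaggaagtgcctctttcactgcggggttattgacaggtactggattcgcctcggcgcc
Cox7b: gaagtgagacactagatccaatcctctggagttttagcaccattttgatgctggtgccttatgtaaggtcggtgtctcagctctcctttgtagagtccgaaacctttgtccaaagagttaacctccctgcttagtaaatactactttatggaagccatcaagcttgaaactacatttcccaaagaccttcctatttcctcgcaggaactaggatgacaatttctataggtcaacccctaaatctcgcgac
Cox6b2: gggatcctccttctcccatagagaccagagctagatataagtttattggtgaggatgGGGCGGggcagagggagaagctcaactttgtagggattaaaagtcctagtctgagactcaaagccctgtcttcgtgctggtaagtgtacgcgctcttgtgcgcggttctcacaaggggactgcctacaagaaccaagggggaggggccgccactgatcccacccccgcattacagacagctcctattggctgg
Cox6b1: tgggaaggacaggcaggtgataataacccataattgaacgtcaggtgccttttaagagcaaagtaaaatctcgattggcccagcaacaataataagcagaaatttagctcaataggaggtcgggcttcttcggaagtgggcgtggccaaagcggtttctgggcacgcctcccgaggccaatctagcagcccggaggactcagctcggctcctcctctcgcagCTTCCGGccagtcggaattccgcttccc

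Over all members, 73 of 88 nuclear genes had a window in the RefSeq table, here taken from 250 bases before to 50 after the start. The NRF1 motif, GCGCA then any base then GCGC, was in 16 of them (21.9%) and in 4.78% of all 27025 windows. CCGGAAG was in 14 (19.2% against 9.12%) and the YY1 motif AAGATGGC in 10 (13.7% against 2.88%). All 10 of those YY1 matches lay after the start or across it, since 0 members had one in the upstream 250 bases. GGGCGG was in 32 (43.8% against 35.9%) and the CRE motif TGACGTCA in 4 (5.48% against 1.88%). Both strands were searched, and matches of different motifs could overlap. A match is only a run of letters here, not a bound site.

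Cox8c, the testis form of the small subunit VIII, went from a small part of its pair to nearly all of it. Its share of Cox8a and Cox8c UMIs was 2.79% (2.56 to 3.03%) in undifferentiated spermatogonia at 0 h, 5.01% at 144 h and 7.16% at 350.4 h. In differentiating spermatogonia it was 3.84, 11.4, 47.5 and 45.97% from 144 h to 763.2 h, and in early meiotic spermatocytes 86.7, 92.8, 93.5 and 89.96%. From early pachytene on it was at least 96.7% in every germ class and library. The common Cox8a was at 1003 CPM in undifferentiated spermatogonia at 0 h and 23.3 CPM in late pachytene spermatocytes at 556.8 h, while Cox8c was at 28.8 and 4442 CPM. Both the loss of the common form and the gain of the testis form thus entered the share.

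Cox7b2 stood out by its early start. Its share of Cox7b and Cox7b2 was 39.5, 50.7 and 46.7% in undifferentiated spermatogonia at 0, 144 and 350.4 h, far above the share of Cox8c in the same cells. Differentiating spermatogonia had 50.2, 54.9, 75.7 and 74.5% and early meiotic spermatocytes 97.5, 99.4, 97.8 and 95.6%. Both forms were lower in differentiating than in undifferentiated spermatogonia. Cox7b2 was at 82.0 against 160 CPM at 144 h and 84.4 against 152 CPM at 350.4 h. Cox7b was at 81.5 against 155 CPM and 69.5 against 174 CPM. Cox7b is on the X chromosome, so in this pair the common form is the X-linked one.

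Cox6b2, the testis form of the subunit at the face where complex IV monomers pair, was the last of the 3 from the early meiotic class on. It held 4.63, 4.84 and 9.58% of its pair in undifferentiated spermatogonia, 10.9, 17.4, 32.02 and 28.8% in differentiating ones and 81.7, 83.3, 72.9 and 65.6% in early meiotic spermatocytes. Early pachytene spermatocytes had 94.9, 96.1 and 95.7% and late pachytene 95.3, 97.1 and 97.1%. In each early meiotic pool the order was Cox7b2, then Cox8c, then Cox6b2, while in differentiating spermatogonia at 144 and 350.4 h the share of Cox6b2 was above that of Cox8c.

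Beside the higher shares at later times in differentiating spermatogonia stand 33 late germ cell markers, genes of spermatids and sperm, which summed to 483, 783, 5849 and 6061 CPM in that class from 144 to 763.2 h. With 5% of the library profile subtracted as free RNA, the Cox8c share in this class at 556.8 h was 39.5% in place of 47.5%. A larger part of free RNA was not tested.

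The late germ cell markers also differed among the early meiotic pools. They summed to 3443, 4081, 10471 and 9231 CPM in them at 144, 350.4, 556.8 and 763.2 h. Prm1, a marker of elongating spermatids, was at 0, 21.6, 3101 and 2128 CPM. The sum includes pachytene markers, so it does not measure spermatid RNA alone. With free RNA subtracted the early meiotic Cox6b2 shares were 83.7, 83.9, 70.5 and 62.3%. A larger part of free RNA was not tested.

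Ndufa4l2 became the larger part of its pair later than the testis forms did, first in late pachytene spermatocytes. It resembles Ndufa4, a subunit of complex IV, and its share of the pair was 1.58, 4.02, 19.8 and 12.8% in early meiotic spermatocytes, 26.04, 46.2 and 40.3% in early pachytene and 90, 94.9 and 95.8% in late pachytene spermatocytes. Elongating spermatids still had 89.5 and 85.2%. Cyct, the testis form of the electron carrier cytochrome c and no member, held the larger part of its pair in early meiotic spermatocytes at 144 and 350.4 h only. Its share was 54.3, 62.9, 39.2 and 32.3% in early meiotic and 94.8, 96.2 and 96.1% in early pachytene spermatocytes. It was 66.4, 88.5 and 87.1% in round and 69.9 and 69.01% in elongating spermatids.

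**Figure D3:**
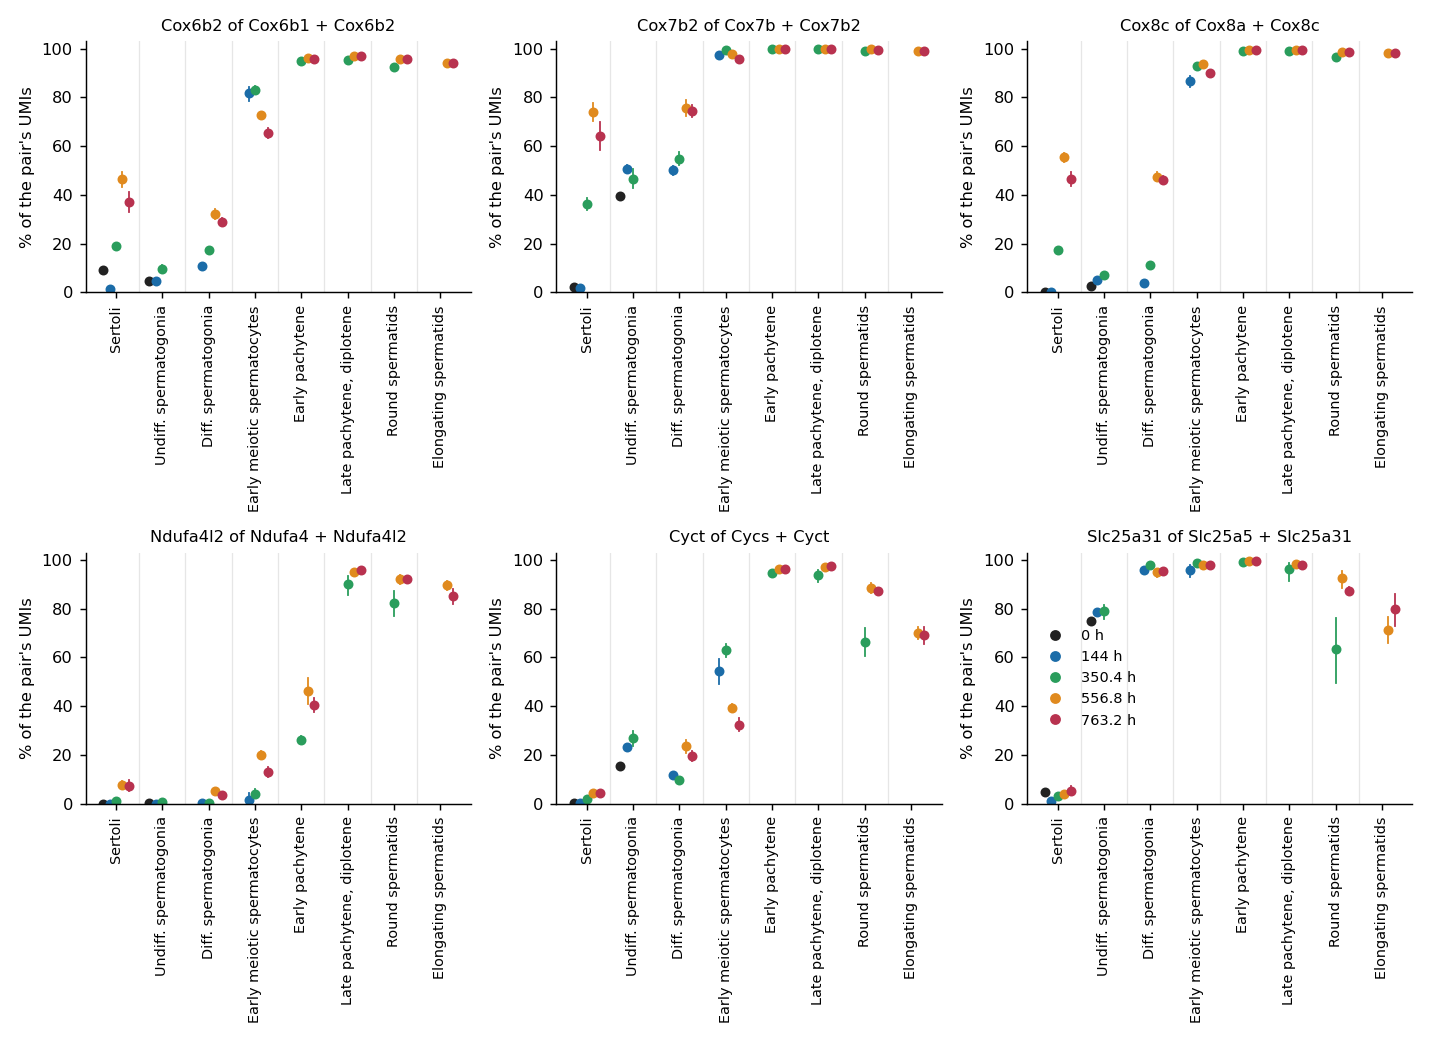
Each panel plots the share of a testis or alternative form among the UMIs of its pair (vertical axis, %) by cell class and library, with exact 95% intervals. Cox7b2 is already at 39.5 to 50.7% in undifferentiated spermatogonia and Ndufa4l2 passes 50% first in late pachytene spermatocytes; Slc25a5 has near copies in the genome, so the last panel is uncertain.

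Cox7a1, the heart and muscle form of its subunit, was also present in Sertoli and Leydig cells. Its share of Cox7a1 and Cox7a2 was 9.82, 29.8, 19.6, 9.06 and 7.59% in Sertoli cells at the 5 times, highest at 144 h, and 5.34 and 22.3% in Leydig cells at 0 and 144 h. Its level in Sertoli cells was 77.3, 227, 137, 74.3 and 42.8 CPM.

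The step from early meiotic to late pachytene spermatocytes was compared within the 556.8 h library (1226 and 4843 cells) and again within the 763.2 h library (505 and 1054 cells). The late germ cell markers summed to 10471 CPM in early meiotic and 9085 CPM in late pachytene cells at 556.8 h, with Prm1 at 3101 and 2231 CPM, and to 9231 and 6417 CPM at 763.2 h, with Prm1 at 2128 and 937 CPM. These sums include the marker genes by which the pachytene classes were named. The part of the markers in the ratios was not tested beyond the subtraction of free RNA. Only members that reached 50 UMIs and 20 CPM in the class where they were higher were read, and a member was counted from a 2-fold ratio on. At 556.8 h, 8 of 82 measured nuclear members were at least 2-fold higher in late pachytene and 13 lower, against 20.7% and 41.5% of all genes. At 763.2 h the counts were 9 and 17 of 83, against 22.4% and 43.4%. The median log2 ratio of the members was 0.24 and -0.08, that of all genes -0.55 and -0.66. A smaller share of the members than of all genes was lower in both libraries, and a smaller share was also higher. By complex, 4 of 15 complex IV members were higher and 3 lower at 556.8 h, while of 15 complex V members 0 were higher and 4 lower. Of 36 complex I subunits 2 were higher and 3 lower.

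The members that were higher by most were 3 complex IV forms and an assembly factor. Cox8c was at 1105 and 4442 CPM at 556.8 h, 4.02-fold (3.94 to 4.10), and at 675 and 3668 CPM at 763.2 h, 5.43-fold (5.24 to 5.64). Cox6b2 was 3.39-fold and 3.46-fold higher and Ndufa4l2 4.05-fold and 5.46-fold higher. Ndufaf3, an assembly factor that helps form the matrix arm of complex I, was at 284 and 981 CPM at 556.8 h, 3.46-fold (3.33 to 3.59), and 3.94-fold higher at 763.2 h.

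Of the 4 lowest members at 556.8 h, 2 were X-linked and 1 was an assembly factor. Ndufaf6, which acts early in complex I assembly, was at 22.2 CPM in early meiotic and 0.351 CPM in late pachytene spermatocytes at 556.8 h, a ratio of 0.0158 (0.00984 to 0.0244), and its ratio was 0.00925 at 763.2 h. Within the same small group of 7 factors Ndufaf3 and Ndufaf6 thus went in opposite directions. Ndufa1, Ndufb11 and Cox7b, all X-linked, had ratios of 0.0309, 0.0245 and 0.0742 at 556.8 h and 0.0232, 0.0237 and 0.0160 at 763.2 h. Cox7b at 556.8 h lies under the minimum of 20 CPM, with 12.3 CPM in early meiotic cells, and was not among the members counted there. The autosomal Atp5g2, a gene for the c subunit of complex V, had a ratio of 0.0524 (0.0489 to 0.0560) at 556.8 h.

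Of 79 nuclear subunits, 3 lie on the X chromosome: Ndufa1, the small MWFE subunit needed to build complex I, Ndufb11 of its membrane arm, and Cox7b of complex IV. Their summed level was 966, 676, 898 and 863 CPM in early meiotic spermatocytes from 144 to 763.2 h, 185, 109 and 132 CPM in early pachytene and 52.8, 27.6 and 19.9 CPM in late pachytene spermatocytes at the last 3 times. Round spermatids had 54.8, 43.7 and 29.7 CPM and elongating spermatids 36.99 and 14.997 CPM. Ndufb11 was at 14.95, 2.56 and 2.82 CPM in late pachytene and 13.7, 12.6 and 7.79 CPM in round spermatids, higher in the latter at the last 2 times. Cox7b was at 2.64, 0.916 and 0.368 CPM in late pachytene and at 5.48, 2.30 and 2.78 CPM in round spermatids, the latter on 8, 10 and 98 UMIs. Ndufa1, which makes up most of the sum, was at 35.2, 24.2 and 16.7 CPM in late pachytene and at 35.6, 28.7 and 19.1 CPM in round spermatids. In round spermatids all 3 were below their early meiotic level except Cox7b at 350.4 h. All X-linked genes together stood at 3238, 1297 and 1734 CPM in late pachytene and 18365, 11053 and 11621 CPM in round spermatids.

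The 3 X-linked members left at different points. Cox7b was at 81.5, 69.5, 68.7 and 69.9 CPM in differentiating spermatogonia and 21.8, 4.92, 12.3 and 23.003 CPM in early meiotic spermatocytes, below its 244 CPM in undifferentiated spermatogonia at 0 h. Ndufb11 was at 91.4, 51.5, 105 and 119 CPM in early meiotic and 1.80, 2.65 and 2.70 CPM in early pachytene spermatocytes. Ndufa1 went up first: 85.9, 111 and 53.1 CPM in undifferentiated spermatogonia, 304, 213, 142 and 186 CPM in differentiating ones and 853, 619, 781 and 721 CPM in early meiotic spermatocytes. It was still at 182, 106 and 129 CPM in early pachytene. Of the 3, only Cox7b has an autosomal testis form among the members.

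**Figure D4:**
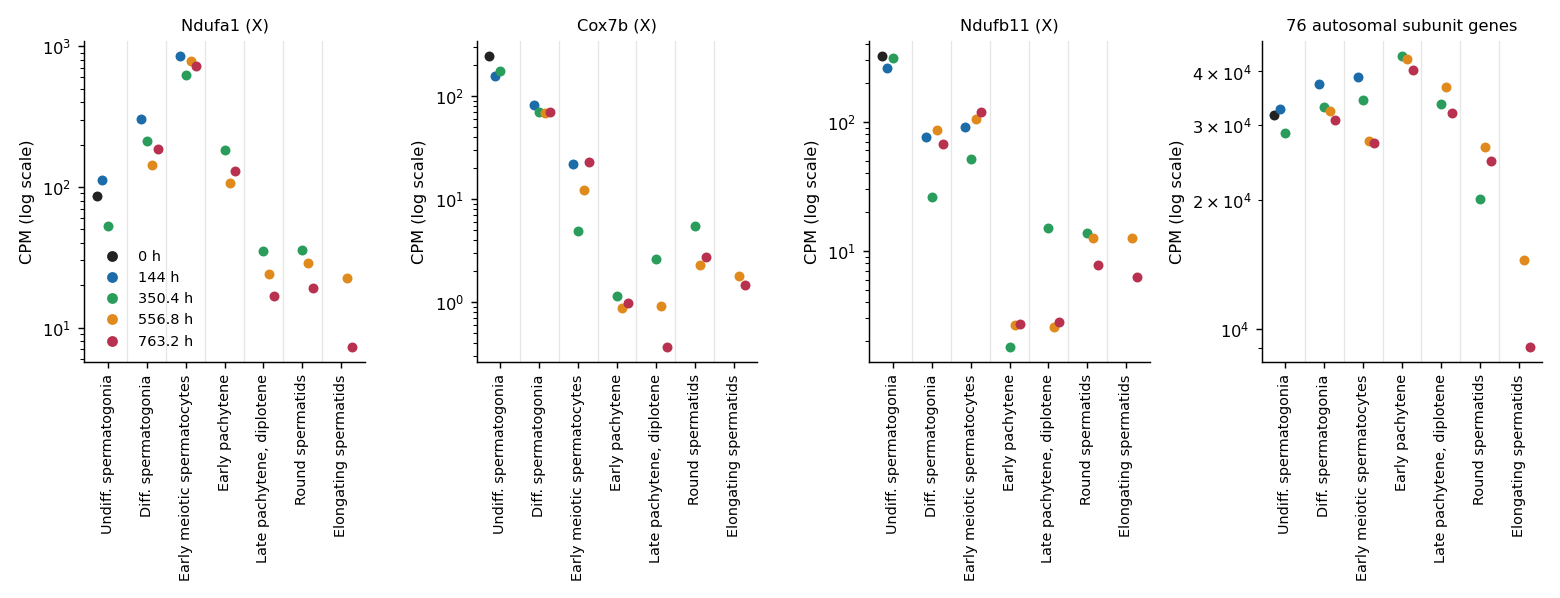
The first 3 panels plot the CPM of the X-linked members and the fourth that of the 76 autosomal subunit genes (vertical axes, log scales that differ between panels) by germ cell class and library. Ndufa1 peaks at 619 to 853 CPM in early meiotic spermatocytes, and the autosomal sum is highest in early pachytene.

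The c subunit of complex V, which forms the turning ring in the membrane, is made from 3 nuclear genes whose mature proteins are the same. Their shares differed along the germ line, a pattern singled out after its values were seen. Atp5g1 took 53.4, 53.7 and 53.6% of the 3 in undifferentiated and 45.6, 44.8, 48.6 and 46.8% in differentiating spermatogonia. It took 24.1, 25.8 and 30.8% in early meiotic spermatocytes at 350.4, 556.8 and 763.2 h and 54.4, 60.6 and 61.7% in late pachytene spermatocytes. Its level was nevertheless lower in late pachytene, at 129, 158 and 150 CPM against 293, 179 and 260 CPM. Atp5g1 took 80.2, 75.3 and 81.2% in round and 85.7 and 85.7% in elongating spermatids. Atp5g2 went from 332 to 17.4 CPM at 556.8 h and from 364 to 17.4 CPM at 763.2 h between early meiotic and late pachytene. Atp5g3 held 32.7 and 31.1% in late pachytene and 6.90 and 4.79% in elongating spermatids.

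Round spermatids were compared with late pachytene spermatocytes in the same libraries. At 556.8 h 1 of 77 members was at least 2-fold higher and 7 lower, against 30.4% and 13.4% of all genes, and at 763.2 h 1 and 7 of 76, against 27.1% and 27.4%. In both libraries a smaller share of the members than of all genes was 2-fold apart, both among those higher and among those lower. The member counted as higher was Cox8a at 556.8 h, 2.18-fold (1.88 to 2.51), and Atp5g1 at 763.2 h, 2.13-fold (2.05 to 2.21). The Cox8a ratio was 1.19 at clustering resolution 1 and 1.41 without the clusters near late pachytene, both under 2-fold. Uqcrc2, a core subunit of complex III, was lowest at both times, with ratios of 0.388 (0.345 to 0.434) and 0.312 (0.294 to 0.332). Ndufaf3 and Ndufc2 were also among the 4 lowest at both times, with 0.436 and 0.450 at 556.8 h and 0.393 and 0.382 at 763.2 h. Atp5a1, a catalytic-head subunit of complex V, was also among them at 556.8 h, at 0.438. Ndufaf2 and Atp5g2 were among the 4 highest at both times, with 1.498 and 1.67 at 556.8 h and 1.64 and 1.76 at 763.2 h, beside Atp5g1 at 1.44 at 556.8 h and Atp5l at 1.42 at 763.2 h. Without the round spermatid clusters near late pachytene the number of members 2-fold apart was 15 and 20, and with each cell weighing the same 0 and 1, so the counts of this step depend on the clusters and on shallow cells.

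Between round and elongating spermatids most members were lower, as were most genes. At 556.8 h 40 of 77 were at least 2-fold lower and 1 higher, against 54.4% and 11.3% of all genes. At 763.2 h 62 of 76 were lower and 1 higher, against 65.1% and 9.76%. The share of lower members at 556.8 h was near that of all genes and at 763.2 h above it, with median log2 ratios of -1.01 and -1.83 for the members and -1.16 and -1.68 for all genes. The number of members 2-fold apart at 556.8 h was 24 at resolution 1 and 14 with each cell weighing the same. By complex, the members lower by at least 2-fold at 763.2 h were 8 of 8 complex III and 12 of 14 complex IV members and 9 of 15 in complex V.

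The exception in both libraries was Ndufa13, a complex I subunit also known as GRIM-19 for a role in cell death. It was at 387 CPM in round and 821 CPM in elongating spermatids at 556.8 h, 2.12-fold (2.02 to 2.24), and at 268 and 592 CPM at 763.2 h, 2.21-fold (2.14 to 2.27). Both elongating pools lay above both round pools. With each cell weighing the same the ratios were under 2-fold, at 1.90 and 1.63, and at 556.8 h so were those at resolution 1, 1.82, and without the round clusters near late pachytene, 1.89. Ndufb7, another complex I subunit, was 1.07-fold (1.03 to 1.11) at 763.2 h. At the other end Uqcrfs1, the iron-sulfur subunit of complex III, was at 0.216 and 0.192 of its round spermatid level and Cox6c of complex IV at 0.218 and 0.194. Ndufs1, the largest iron-sulfur subunit of complex I, had a ratio of 0.169 (0.137 to 0.208) at 556.8 h and the testis form Cox8c one of 0.229. At 763.2 h the lowest were Ndufaf2, an assembly factor of complex I, at 0.161 (0.150 to 0.172), and the testis form Cox7b2 at 0.191. Among the c subunit genes of complex V, Atp5g1 was at 1.14 and 0.868 and Atp5g2 at 0.776 and 1.004 at 556.8 and 763.2 h. Atp5g3 was lower, at 0.456 and 0.357.

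In Sertoli cells few members were 2-fold apart between neighbouring times, and these comparisons share libraries. At 144 h against 0 h, 2 of 79 members were at least 2-fold higher and 2 lower, against 13.8% and 7.75% of all genes, with a median log2 ratio of -0.27 for the members and 0.19 for all genes. Cox7a1 was at 77.3 and 227 CPM, 2.94-fold (2.80 to 3.08). Ndufv3, an accessory subunit of the NADH-binding module, was 2.09-fold (2.02 to 2.17) higher, and 1.86-fold with each cell weighing the same. Cox6b2 was at 60.8 and 5.76 CPM, a ratio of 0.0947 (0.0795 to 0.112), and Cox7b at 312 and 132 CPM, a ratio of 0.423 (0.407 to 0.440). Below the 2-fold line, Cox5a and Ndufa3 were higher at 144 h, with ratios of 1.67 and 1.44, and Ndufaf2 and Ndufs7 lower, with ratios of 0.525 and 0.527.

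At 350.4 h against 144 h the testis forms led. Here 4 of 81 members were at least 2-fold higher and 1 lower, against 6.22% and 3.89% of all genes. Cox8c was 122-fold (86.8 to 177) higher, Cox7b2 27.9-fold (21.5 to 36.9), Cox6b2 16.1-fold (13.5 to 19.4) and Ndufaf3 2.06-fold (1.84 to 2.31). The lower member was Ndufa3, a small complex I subunit, at 0.430 (0.409 to 0.451) of its 144 h level. Ndufv3, Ndufa6 and Cox7a1 came next, with ratios of 0.562, 0.569 and 0.605. At 556.8 h against 350.4 h, 5 of 83 were higher and 0 lower, against 12.8% and 3.79%: Ndufa4l2 (6.98-fold), Cox8c (4.95-fold), Cox7b2 (3.16-fold), Ndufaf3 (2.92-fold) and Cox6b2 (2.79-fold). The lowest there were Ndufc2, Cox7a1, Ndufa1 and Cox7b, with ratios of 0.531, 0.542, 0.659 and 0.635. At 763.2 h against 556.8 h 0 of 83 were higher and 0 lower, against 2.57% and 2.28%. The lowest by interval were Ndufv3 at 0.539 (0.452 to 0.640) and Cox8c at 0.618, then Cox5a and Cox7a2 at 0.696 and 0.699, and the highest by interval were Atp5c1, Ndufb11, Ndufa10 and Ndufc2 at 1.16, 1.20, 1.17 and 1.18.

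Cox8c, Cox6b2, Ndufaf3 and Ndufa4l2, higher here, also headed the comparison of late pachytene with early meiotic spermatocytes. In Sertoli cells Cox8c was at 1.37, 1.32, 161, 799 and 493 CPM, Cox7b2 at 7.10, 2.45, 68.5, 216 and 156 CPM and Cox6b2 at 60.8, 5.76, 92.8, 259 and 177 CPM at the 5 times. The first 2 times lie apart from the last 2 for Cox8c and Cox7b2, with 350.4 h between, while Cox6b2 was also present at 0 h. The 33 late germ cell markers summed to 164, 184, 671, 6236 and 5618 CPM in the same cells, with 22, 23, 33, 33 and 32 of the 33 having a UMI, and Prm1, the protamine that packs sperm DNA, to 0.0311, 0, 50.2, 1998 and 1481 CPM. The later levels were not particular to Sertoli cells. In peritubular myoid cells Cox8c was at 89.8, 1206 and 877 CPM and Cox7b2 at 39.4, 312 and 347 CPM at 350.4, 556.8 and 763.2 h. In macrophages Cox8c was at 133 and 1631 CPM and Cox7b2 at 64.1 and 604 CPM at 350.4 and 556.8 h. Both classes were below Sertoli cells at 350.4 h and above them afterwards.

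As a share of their level in the whole library, the testis forms and Prm1 can be set side by side. At 556.8 h Cox8c, Cox7b2 and Cox6b2 in Sertoli cells stood at 24.4, 23.8 and 24.1% of their library level and Prm1 at 17.3%. At 350.4 h they stood at 9.12, 10.2 and 11.6% and Prm1 at 35.6%. At 763.2 h they stood at 21.5, 20.6 and 18.96% and Prm1 at 10.5%. The 3 testis forms were thus at similar fractions of their library level within each of these 3 times, with Prm1 below them at 556.8 and 763.2 h and above them at 350.4 h. At the first 2 times Cox6b2 stood apart: the 3 were at 14.8, 14.004 and 99.99% at 0 h and 2.55, 2.77 and 8.43% at 144 h. The part of germ cell RNA in these Sertoli values was tested only by subtraction: with 5% of the library profile subtracted from each class, the Cox8c share of its pair at 556.8 h was 48.5% in place of 55.4%.

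The shallow cluster bears on these ratios. Without the 3 clusters that stand apart, the 350.4 h over 144 h ratio was 84.99 for Cox8c, 17.9 for Cox7b2, 11.2 for Cox6b2 and 1.72 for Ndufaf3, the last under 2-fold. The 556.8 h over 350.4 h ratio was then 7.48, 5.39, 4.16 and 3.46, and that of Ndufa4l2 16.2. With each cell weighing the same the second step no longer held: no member was 2-fold apart at 556.8 h against 350.4 h, and Cox7b2 and Cox6b2 turned to ratios of 0.860 and 0.868. With free RNA subtracted no UMIs of Cox8c and Cox7b2 were left in Sertoli cells at 144 h. Their 350.4 h over 144 h ratios, then 513 and 257, rest on a set floor of 3 UMIs and do not measure the size of the rise. The ratio of Ndufaf3 was 1.54, under 2-fold. Ndufaf3 was under 2-fold in that step also in cells of at least 5000 UMIs, 1.76, and with CPM of all UMIs, 1.90. With free RNA subtracted the 144 h over 0 h ratio of Cox6b2 was 0.0370.

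**Figure D5:**
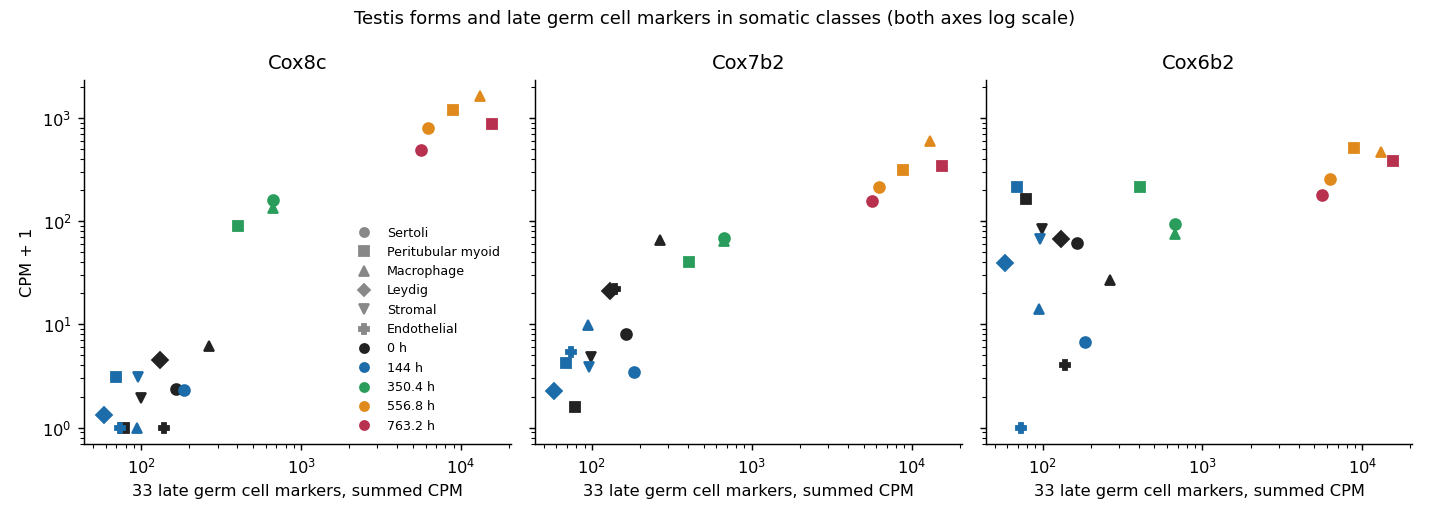
Each panel plots 1 testis form in somatic cell classes (vertical axis, CPM plus 1, log scale) against the summed CPM of 33 late germ cell markers (horizontal axis, log scale), with shapes for the class and colours for the library. Where the markers sum to at most 265 CPM, in the 0 and 144 h libraries, Cox8c is at most 5.25 CPM, whereas Cox6b2 stands at 163 and 217 CPM in peritubular myoid cells with the markers at 78.2 and 69.1 CPM.

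Cox6b2 was also present in peritubular myoid cells, including at 0 and 144 h, when the late germ cell markers were low. It was at 163, 217 and 213 CPM at 0, 144 and 350.4 h (561, 940 and 233 UMIs), a share of its pair of 27.5% (25.5 to 29.5%), 30.7% (29.04 to 32.3%) and 30.5% (27.2 to 33.9%). The late germ cell markers summed to 78.2 and 69.1 CPM at 0 and 144 h, and Prm1 had 0 UMIs in myoid cells at both. Cox8c in the same cells was at 0 and 2.07 CPM and Cox7b2 at 0.579 and 3.23 CPM. At 350.4 h the markers summed to 404 CPM, with 33 of 33 having a UMI, Prm1 at 33.9, Cox8c at 89.8 and Cox7b2 at 39.4 CPM. Stromal cells had a Cox6b2 share of 14.7 and 13.03%, and Sertoli cells of 9.02% at 0 h and 1.36% at 144 h. At 0 h Cox6b2 was at 65.996 CPM in Leydig, 82.4 in stromal, 26.2 in macrophage and 3.02 CPM in endothelial cells, so its level was not alike across somatic classes.

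Undifferentiated spermatogonia were compared between 0 and 144 h (2226 and 359 cells, in clusters 4, 2 and 16 at 0 h and 16 and 4 at 144 h). None of 82 members was 2-fold apart, against 1.65% of all genes higher and 2.76% lower. Cox8c had a ratio of 1.87 (1.66 to 2.11), Uqcrc1, a core subunit of complex III, 1.42 (1.34 to 1.502), Cox6a1 1.34 and Cox7a2 1.32. Lowest were Cox7b at 0.635 (0.599 to 0.673), Cox7a2l, which helps join complexes III and IV, at 0.779, Ndufb4 at 0.793 and Ndufb11 at 0.805. The X-linked Cox7b was thus lower at 144 h in Sertoli cells and in spermatogonia, and in the 144 h library as a whole (303 and 131 CPM).

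Within the 0 h library, Sertoli cells and undifferentiated spermatogonia differed in few members. Of 82, 5 were at least 2-fold higher in Sertoli cells and 3 lower, against 23.3% and 19.6% of all genes. Ndufa12 of complex I was at 85.3 CPM in the spermatogonia and 340.1 CPM in Sertoli cells, 3.99-fold (3.78 to 4.20). The others that were higher were Cox7a1 (3.95-fold), Ndufaf3 (3.51-fold), Ndufa1 (3.45-fold) and Ndufb4 (2.24-fold, or 1.88-fold with each cell weighing the same). Lower were Cox7b2, with a ratio of 0.0445 (0.0387 to 0.0509), Cox8c, 0.0476 (0.0342 to 0.0648), and Ndufa9, which binds at the base of the matrix arm of complex I, 0.460 (0.438 to 0.483). Ndufaf2 came next, at 0.524. Without the Sertoli clusters that stand apart 10 members were 2-fold apart in place of 8, and with free RNA subtracted 13.

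Genes that serve the complexes without belonging to them were read from 11 lists. In late pachytene against early meiotic spermatocytes, 7 of 11 measured genes of mitochondrial DNA upkeep and transcription were at least 2-fold lower in both libraries, among them Tfam, which packs mitochondrial DNA, and Polrmt, the mitochondrial RNA polymerase. Tfam was at 105 and 43.4 CPM at 556.8 h and at 69.9 and 15.4 CPM at 763.2 h. Of the regulators of mitochondrial gene expression, 5 of 6 were lower (Pprc1, Nrf1, Gabpa, Gabpb1 and Yy1) and Esrra was higher, at 9.33 and 22.8 CPM at 556.8 h. Of the mitochondrial RNA stability genes, 4 of 6 were lower at 556.8 h and 4 of 7 at 763.2 h. The median log2 ratio of all genes in this step was itself -0.55 and -0.66, and 41.5% and 43.4% of them were at least 2-fold lower.

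None of the 4 nuclear subunits of complex II, which has no mitochondrial gene, was 2-fold apart in that step in either library. Atpif1, the inhibitor that stops complex V from running in reverse, was at 401 and 1169 CPM at 556.8 h and 366 and 1053 CPM at 763.2 h, higher in late pachytene in both. Of the citrate cycle genes, 3 were higher and 6 lower of 12 in both libraries, and the assembly list of complexes III and V had 1 higher, Uqcc3, and 5 lower. Of all genes, 20.7% were higher and 41.5% lower in this step at 556.8 h, and 22.4% and 43.4% at 763.2 h. The counts of these 2 lists are therefore not read as particular to them.

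In spermatids the complex II subunits were lower and Tfam was higher than in late pachytene spermatocytes. Sdha was at 113, 49.6 and 10.4 CPM in late pachytene, round and elongating cells at 763.2 h, and all measured complex II subunits, 4 at 556.8 h and 3 at 763.2 h, were at least 2-fold lower in elongating than in round spermatids, a step in which 54.4% and 65.1% of all genes were lower by that much. Tfam was at 43.4, 233 and 1268 CPM in the same 3 classes at 556.8 h and 15.4, 98.7 and 1341 CPM at 763.2 h. It was the only one of 5 measured genes of mitochondrial DNA upkeep and transcription that was higher in elongating spermatids, the other 4 being at least 2-fold lower in both libraries. Counts per gene do not tell transcript forms apart, and whether the Tfam RNA of spermatids serves mitochondria was not tested.

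In Sertoli cells the list genes 2-fold apart are named for each step beside the share of all genes. At 144 h against 0 h that share was 13.8% higher and 7.75% lower. Cox16, Cox20 and Coa3, all assembly factors of complex IV, were lower among 12 measured, Fastkd1 of the RNA stability list was higher, and of 14 citrate cycle genes Suclg1 was higher and Idh2 lower. At 350.4 h against 144 h Cyct and Slc25a31, an adenine nucleotide carrier of germ cells, were higher, against 6.22% of all genes. At 556.8 h against 350.4 h Sco2, Polg2 and Pdha2, the testis form of a pyruvate dehydrogenase subunit, were higher and Bcs1l, Pprc1 and Gabpb1 lower, against 12.8% and 3.79% of all genes. No complex II subunit was 2-fold apart at any of the 4 Sertoli steps.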

How the data were processed

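Whole-testis single-cell libraries were deposited as filtered matrices of UMI counts, with whole-number counts per gene and barcode, and per the file headers Cell Ranger 3.0.2 wrote them. Per the submitters' processing notes, Seurat 4.3.0.1 was used and mm10 was the build. How strand was handled is not given in the sources used here. Members and lists were chosen with earlier results of these data known.

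Cells with at least 1000 UMIs, 500 genes and under 50% mitochondrial UMIs were kept, the loose limit because the members set that share, and barcodes with a Scrublet score above 0.25 (expected rate 0.08) were removed as doublets (153, 340, 199, 342 and 437 at the 5 times). Counts were clustered with scanpy 1.11.5 and python-igraph 0.11.9 on 3000 variable genes without the members, mitochondrial genes or list genes (40 components, 15 neighbours, resolution 2, 68 clusters), and clusters were named from 16 marker lists. Counts were summed per class and library, with classes of at least 20 cells. Intervals came from scipy 1.17.1: Clopper-Pearson for shares, Poisson for sums and conditional binomial for ratios. Genes were named by rule: the 13 mitochondrial genes, all isoform pairs, X-linked members, the 4 highest and 4 lowest members per comparison by the interval bound nearest 1 (fewer where fewer lay on that side of 1), and counts of 5 or fewer; 1 gene that the rule selects is not reported here. On simulated data with known folds, 94.8% of intervals covered the true ratio for Sertoli cells at 144 against 0 h (11786 genes) and 95.7% for late pachytene against early meiotic spermatocytes at 556.8 h (13065 genes). The simulated counts carried Poisson counting error only, the error for which the intervals are built. They held no variation between cells or libraries, so the coverage checks the computation and says nothing on that variation. The alternatives were a 20% limit, cells of at least 5000 UMIs, resolution 1, doublets kept, free RNA subtracted, equal weight per cell, other count minimums, CPM of all UMIs and shorter promoter windows. Figures used matplotlib 3.10.9.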

Additional observations from a re-analysis of the deposited data

Results flagged for a closer look

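Cox7a2, the common liver-type form of a complex IV subunit, went opposite ways in 2 cell classes of the same libraries. Its 144 h over 0 h ratio was 0.755 (0.739 to 0.771) in Sertoli cells and 1.32 (1.28 to 1.36) in undifferentiated spermatogonia, a ratio of ratios of 0.572. With 1 library per time the difference was not tested.

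Barcodes with at least 50% mitochondrial UMIs entered no comparison, and Sertoli markers stood high in them. They numbered 11, 280, 427, 72 and 26 at the 5 times. In the 144 h library the Sertoli markers summed to 10402 CPM in them and 8512 CPM in all barcodes. The values were 12246 and 3113 CPM at 350.4 h, 4782 and 567 CPM at 556.8 h, and 7826 and 514 CPM at 763.2 h. At 0 h they were lower in these barcodes (7597 against 9615 CPM). At 350.4 h these barcodes held 22.5% of the mitochondrial UMIs of the library.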

How the results depend on the processing

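No paired analysis was possible because each time has 1 library and the labels carry no replicate numbers. Of the alternatives, leaving out the 3 Sertoli clusters and the round spermatid clusters near late pachytene were chosen after seeing the data. Over all values and alternatives, 4610 stayed within their interval or side, 1351 moved and 8 changed direction. Because counts are large, intervals are narrow and small shifts count as moves; the cause of a move was not tested.

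The library mitochondrial shares (0, 144, 350.4, 556.8, 763.2 h) were 6.68, 10.1, 8.35, 3.89 and 3.32% over kept cells under 50%, 6.61, 9.47, 6.57, 3.01 and 2.74% under 20% and 4.46, 7.002, 7.15, 1.44 and 2.38% as medians over barcodes. The Sertoli share at 0 h was 7.09, 7.51, 7.44, 7.17, 5.46 and 7.62% with a 20% limit, cells of at least 5000 UMIs, resolution 1, free RNA subtracted, equal weight per cell and the 3 clusters left out. At 350.4 h it was 15.4, 23.3, 22.3, 22.2, 22.9, 15.8 and 23.1% with a 20% limit, at least 5000 UMIs, resolution 1, doublets kept, free RNA subtracted, equal weight and the clusters left out. The Sertoli nuclear sum at 0 h was 34069.9, 32455, 33948, 33641, 32668 and 31435 CPM with at least 5000 UMIs, resolution 1, free RNA subtracted, equal weight, the clusters left out and CPM of all UMIs. For elongating spermatids at 763.2 h the mitochondrial share was 0.683, 0.470, 0.609, 0.757, 0.549 and 1.62% with a 20% limit, at least 5000 UMIs, resolution 1, doublets kept, free RNA subtracted and equal weight. Their nuclear sum was 7966, 8219.6, 9435, 8177, 13558 and 9019 CPM with at least 5000 UMIs, resolution 1, doublets kept, free RNA subtracted, equal weight and CPM of all UMIs.

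The Sertoli Cox8c share at 556.8 h was 60.9 and 48.5% with a 20% limit and free RNA subtracted. In late pachytene spermatocytes at 763.2 h, mt-Cytb was 4.04, 3.98 and 4.40% with a 20% limit, at least 5000 UMIs and resolution 1, and the Cox6b2 share 97.4 and 96.9% at resolution 1 and equal weight.

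Counts of members 2-fold apart moved as follows. With no count minimum they were 7, 8 and 1 for Sertoli cells at 144 against 0 h, 556.8 against 350.4 h and 763.2 against 556.8 h (reported counts 4, 5 and 0), 2 for undifferentiated spermatogonia (reported count 0), and 15 and 13 for round spermatids at 556.8 and 763.2 h (reported counts 8 and 8). Round spermatid counts were also 18 and 20 with at least 5000 UMIs, 31 and 25 at resolution 1, 0 and 1 with equal weight, and 15 and 20 without clusters near late pachytene. With equal weight the Sertoli count at 556.8 against 350.4 h was 0, and Cox7b2 and Cox6b2 turned to 0.860 and 0.868. For elongating against round spermatids at 556.8 h (reported count 41) it was 24 at resolution 1 and 14 with equal weight. Sertoli cells against undifferentiated spermatogonia gave 13 with free RNA subtracted (reported count 8). With CPM of all UMIs, list genes 2-fold apart were 1 and 3 for Sertoli cells at 350.4 against 144 h and 556.8 against 350.4 h (2 and 6 in the reported scale) and 0 for undifferentiated spermatogonia (1).

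Members near a ratio of 1 between round and elongating spermatids changed side: Atp5g1 at 556.8 h to 0.960, 0.919 and 0.990 with at least 5000 UMIs, at resolution 1 and without clusters near late pachytene, Atp5g2 at 763.2 h to 0.995 at resolution 1 and 0.954 with equal weight, and Ndufb7 at 763.2 h to 0.936 with equal weight. The number of members with the YY1 motif went to 0 in the upstream 250 bases. Depth limits the values of small pools, among them Sertoli cells at 556.8 and 763.2 h with 105 and 77 cells, and of members near 0 UMIs.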

Other observations

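A small group of cells left unnamed at 0 h carried 2 forms that were nearly absent from Sertoli and peritubular myoid cells of that library. The observation was made after the values were seen. Of the 30 cells in the group, 25 fell in a cluster led by Rgs5, Mustn1 and Tagln, genes of contractile cells around vessels, which did not pass the naming rules. Cox4i2, a form of Cox4 known for its response to oxygen, was at 272 CPM there (14 UMIs), 18.4% (10.5 to 28.97%) of its pair. Ndufa4l2 was at 292 CPM (15 UMIs), 37.5% (22.7 to 54.2%) of its pair. In Sertoli cells of the same library Cox4i2 was at 0.343 CPM and Ndufa4l2 at 0.0934 CPM, and in peritubular myoid cells at 1.74 and 2.90 CPM. Ndufa4l2 was not rare in germ cells, with 196 CPM in late pachytene spermatocytes at 556.8 h.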
